A study of Homo sapiens with 6 samples.

Results

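*HOXA3*, *HOXA4*, *HOXA5*, *HOXA6*, *HOXA7*, *HOXA9*, *HOXA10* and *HOXA11*, 8 genes of the HOXA cluster, were examined together with *MEIS1* and *PBX3* in RNA sequencing of MV4-11 cells. These 10 genes were the rows of the count matrix whose Ensembl identifiers map to these symbols, out of 61806 genes in all, and every one was found. MV4-11 is a human acute myeloid leukemia (AML) cell line of monocytic type that carries an *FLT3* internal tandem duplication and a KMT2A-AFF1 fusion. The study knocked down ATGL, the lipase that releases fatty acids from stored triglyceride and is encoded by *PNPLA2*, with lentiviral shRNAs. The control group comprised 3 libraries (shNC 1 to 3), from cells given a control shRNA. The other 3 libraries (shATGL 1 to 3) bear labels of the ATGL shRNA, and the labels name no further treatment. The labels do not say which of the study's shRNAs each library carried, or whether replicates came from separate cultures, so the p-values measure a spread between libraries that may be technical.

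HOX genes encode homeodomain transcription factors that lie in 4 clusters and give cells their position along the body axis. In blood, genes of the HOXA cluster are active in stem and progenitor cells and are normally switched off as myeloid cells mature. KMT2A fusion proteins keep the cluster active, and AML cells with such a fusion typically depend on *HOXA9*. *HOXA9* binds DNA together with *MEIS1* and *PBX3*, homeodomain proteins of the TALE class, which raise its affinity and choice of sites.

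Reads of HOX genes can be told apart only where their sequences differ. Along the longest protein-coding transcripts in GENCODE 29 (GRCh38), no stretch of 100 bases of *HOXA10* or of 7 of the other genes occurred in the transcript of another gene. In *HOXA9*, 15.3% of such stretches also lie in ENSG00000257184, a locus that reads through from *HOXA10* to *HOXA9*, and in *HOXA4*, 26.9% also lie in ENSG00000273433. Over all annotated exons, other genes of the same strand share 31.0% of the bases of *HOXA4* and 15.9% of *HOXA9*. They also share 9.9% of *HOXA10*, 9.2% of *HOXA3* and 4.4% of *HOXA6*. The count file lists ENSG00000257184 at 0 in every library.

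The total counts ranged from 59674064 to 74808280 per library, and 3 counts, the upper limit that a count of 0 allows, correspond to between 0.0392 and 0.0504 CPM. CPM are the counts of a gene per 1000000 counts of its library, here after normalization of library sizes. *PNPLA2*, the targeted gene, reached 101, 97.0 and 107 CPM in shNC 1, 2 and 3. The libraries labelled shATGL held 102, 98.1 and 104 CPM of it. The groups overlapped, so the label of the knockdown was not borne out at the RNA level, with a log2 fold change of -0.01 (SE 0.06) and an adjusted p-value of 0.979 by edgeR's quasi-likelihood test. All directions below are therefore those of the libraries labelled shATGL. All 13 myeloid and monocytic markers examined were above 1 CPM in every library, and their summed level was 2678 to 2819 CPM in shNC and 2549 to 2650 CPM in the libraries labelled shATGL, a difference whose part in the results was not tested. Defining markers of T cells (*CD3D*, *CD3G*, *CD8A*), erythroid cells (*HBB*), megakaryocytes (*PF4*, *PPBP*), stroma (*COL1A2*, *COL3A1*) and epithelium (*EPCAM*, *KRT18*) were listed at 0 in every library. In bulk RNA, fewer cells expressing a gene and less RNA per cell cannot be told apart.

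*HOXA9* and *PBX3* were the most abundant of the 10 genes for their length, followed by *HOXA10* and *HOXA11*. To compare genes, CPM were divided by the length of all exons of a gene in kb. On this scale *HOXA9* averaged 22.3 CPM per kb over the 6 libraries (20.3 to 24.6) and *PBX3* averaged 21.7 (20.9 to 22.5), and their ranges overlapped. *HOXA10* averaged 16.9 CPM per kb (14.99 to 19.0), below *PBX3* in every library, and *HOXA11* averaged 9.58 (8.75 to 10.5), below *HOXA10* in every library. A gap followed. *HOXA5* averaged 1.51 CPM per kb (1.25 to 1.80), a level 6.36-fold below *HOXA11*, and *HOXA7* averaged 1.25 (0.862 to 1.59), which overlapped *HOXA5*. *HOXA4* at 0.462 CPM per kb (0.262 to 0.735), *MEIS1* at 0.355 (0.271 to 0.455) and *HOXA6* at 0.280 (0.0915 to 0.408) overlapped one another. *HOXA3* averaged 0.0448 CPM per kb (0.0156 to 0.0689), 6.24-fold below *HOXA6* and below it in every library. The 5 steps from *PBX3* to *HOXA10*, *HOXA10* to *HOXA11*, *HOXA11* to *HOXA5*, *HOXA7* to *HOXA4* and *HOXA6* to *HOXA3* were those with no overlap of ranges over the 6 libraries. The order was the same in shNC alone, while in the libraries labelled shATGL alone *PBX3* averaged above *HOXA9*.

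**Figure D1:**
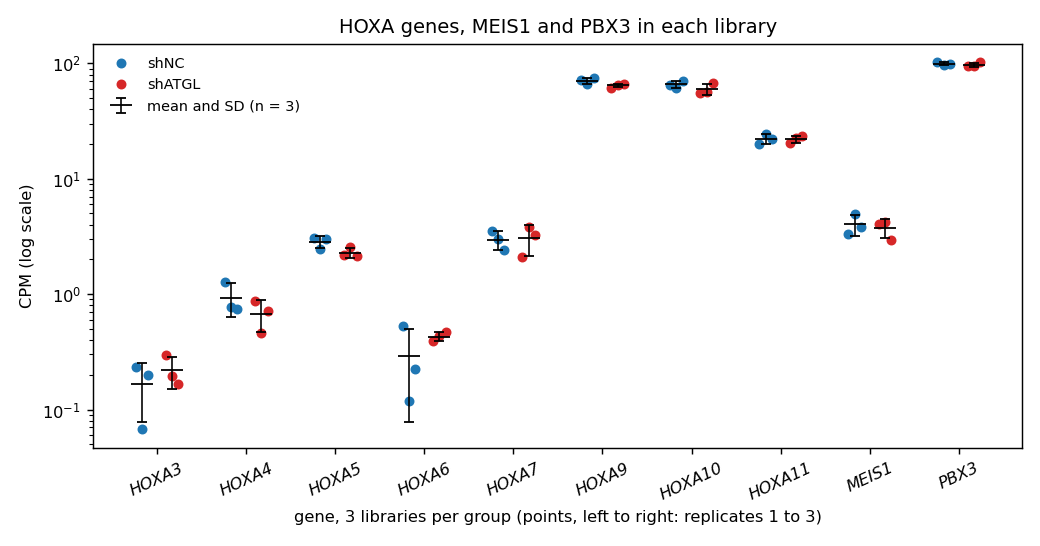
CPM of the 10 genes in each library on a log scale, with the 3 shNC libraries in blue and the 3 libraries labelled shATGL in red, and the mean and SD of each group in black. The points of the groups overlap for every gene, and the genes themselves spread from under 0.1 to about 100 CPM.

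Position along the chromosome went with these levels. The HOXA genes lie on the minus strand of chromosome 7, from *HOXA3* (chr7:27106184-27152581 in GRCh38) through *HOXA4* (chr7:27128507-27130799), *HOXA5* (chr7:27141052-27143668), *HOXA6* (chr7:27145396-27150603), *HOXA7* (chr7:27153716-27157936), *HOXA9* (chr7:27162435-27175180) and *HOXA10* (chr7:27170591-27180261) to *HOXA11* (chr7:27181510-27185223). *HOXA7* and *HOXA9*, which are neighbours, differed 13.5- to 24.6-fold per kb in the same library, with *HOXA9* higher in all 6. From *HOXA9* the level per kb declined with every gene toward the 5′ end of the cluster. *HOXA9* stood 1.21 to 1.40 times above *HOXA10*, *HOXA10* stood 1.57 to 2.01 times above *HOXA11*, and *HOXA11* stood 2.54 to 3.02 times above *HOXA13*, a gene of the 5′ end that acts in limb and hindgut. These ratios overlapped between the groups. On the 3′ side the decline was not even, since *HOXA6* averaged below *HOXA5* and *HOXA4*, which lie farther toward the 3′ end, and *HOXA2* averaged 0.0418 CPM per kb, near *HOXA3*. *HOXA2*, a hindbrain patterning gene, had 0 counts in shNC 1 and shATGL 1 and 13 or fewer in the other libraries.

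The antisense RNA genes of the cluster also differed widely in level. *HOXA10-AS* averaged 7.73 CPM per kb and was 0.407 to 0.539 times as abundant per kb as *HOXA10*, and *HOXA11-AS* averaged 4.13 and was 0.395 to 0.492 times as abundant as *HOXA11*. *HOTTIP*, a long noncoding RNA that recruits the *WDR5* and KMT2A complex to the 5′ end of the cluster, averaged 1.06 CPM per kb, and *HOTAIRM1*, a myeloid noncoding RNA of the 3′ side, averaged 1.88. *HOXA-AS3* and *HOXA-AS2*, beside the weakly expressed genes, averaged 0.0808 and 0.0163 CPM per kb. Whether reads were counted by strand is not given in the sources used here, so reads of overlapping sense and antisense exons may have been exchanged. The antisense genes cover 62.5% of the exon bases of *HOXA7*, 39.3% of *HOXA6*, 31.1% of *HOXA11*, 16.4% of *HOXA10* and 13.9% of *HOXA9*, and none of *HOXA5* or *PBX3*. Of the antisense genes themselves, 62.3% of the exon bases of *HOXA10-AS*, 39.3% of *HOXA-AS3* and 27.4% of *HOXA11-AS* lie opposite exons of other genes. For *HOTTIP* and *HOTAIRM1* this share is 1.7%. The levels and ratios of *HOXA10-AS* and *HOXA11-AS* may therefore include sense reads. Other genes of the same strand share 43.2% of the exon bases of *HOTAIRM1*, 31.9% of *HOXA11-AS* and 18.4% of *HOTTIP*. How reads in such shared bases were counted is not given in the sources used here. *EVX1*, the gene past *HOXA13*, was listed at 0 in every library.

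**Figure D2:**
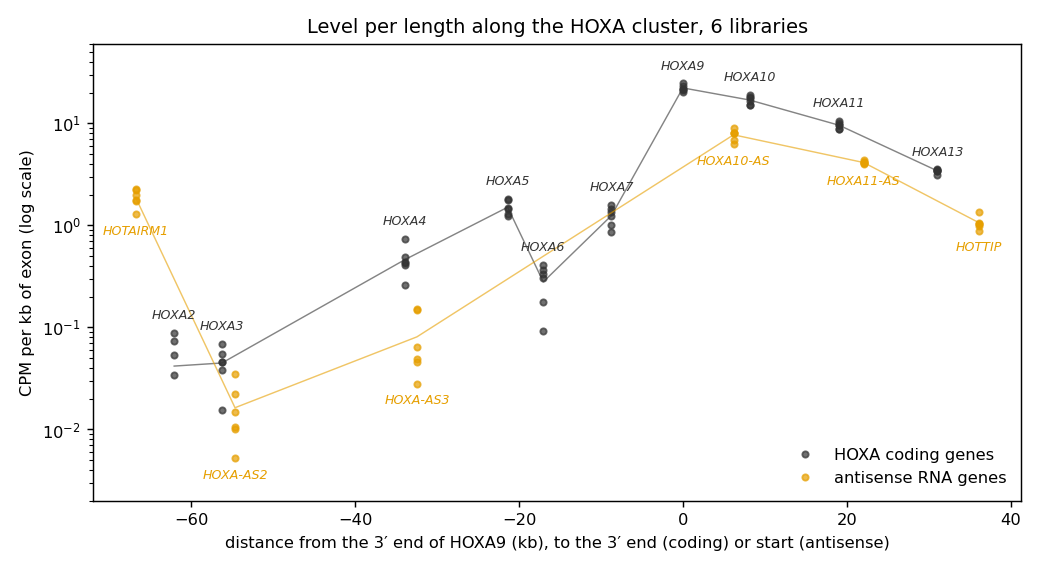
CPM per kb of exon on a log scale for 10 HOXA coding genes (grey) and 6 antisense RNA genes (orange), plotted by the distance in kb of a coding gene's 3′ end or an antisense gene's start from the 3′ end of *HOXA9*, with 1 point per library and lines through the means. The level rises from *HOXA7* to its peak at *HOXA9* and declines to *HOXA13*, and among the antisense genes *HOXA10-AS* is highest and *HOXA-AS2* lowest, with *HOTAIRM1* above *HOTTIP*. Libraries with a count of 0 are not drawn.

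Among all HOX genes, the HOXA cluster took 81.6% to 83.3% of the counts in each library, out of 12824 to 16754 counts on 39 HOX genes. *HOXA9* and *HOXA10* alone took 58.8% to 61.4%. The HOXB cluster took 12.9% to 14.5%, the HOXC cluster 2.89% to 3.45% and the HOXD cluster 0.190% to 0.447%. At least 10 counts in every library were found for 8 of 11 HOXA, 5 of 10 HOXB, 5 of 9 HOXC and 1 of 9 HOXD genes. The highest gene outside HOXA was *HOXB6* at 6.78 CPM per kb, between *HOXA11* and *HOXA13*, followed by *HOXB7* at 1.92. The paralogs of *HOXA9* were far lower, with *HOXB9* at 0.0869, *HOXC9* at 0.692 and *HOXD9* at 0.0328 CPM per kb, and *HOXC10* was at 1.03.

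**Figure D3:**
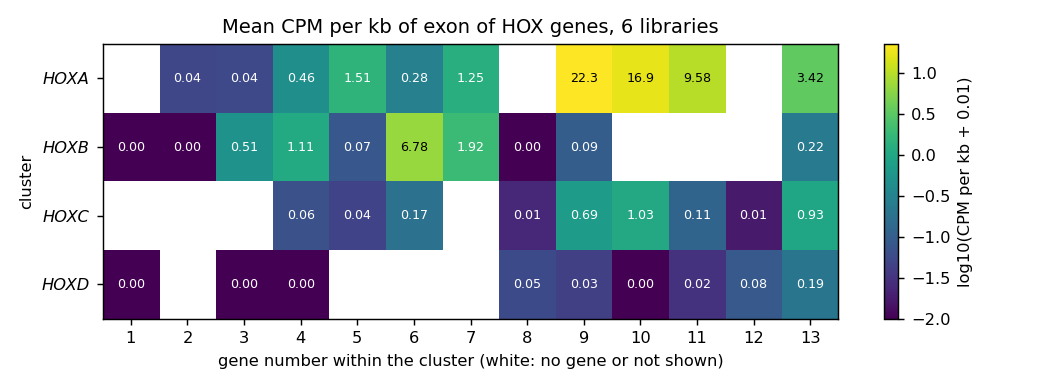
Mean CPM per kb of exon of HOX genes over 6 libraries, by cluster (rows) and gene number (columns), with colour on a log10 scale after adding 0.01. The highest values are *HOXA9* (22.3), *HOXA10* (16.9), *HOXA11* (9.58) and *HOXB6* (6.78), and most HOXD genes are at or near 0.

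*HOXA9* was measured from 3909 to 5292 counts per library. Its level was 71.2, 65.7 and 74.6 CPM in shNC 1, 2 and 3 and 61.6, 65.0 and 66.5 CPM in shATGL 1, 2 and 3. The libraries labelled shATGL were at or below the lower part of the shNC range, and only shATGL 3 overlapped it, lying above shNC 2. These values average to 70.5 ± 4.52 CPM for shNC and 64.4 ± 2.51 CPM for shATGL (SD, n = 3 each). The level in shATGL was 91.3% of that in shNC, with a 95% confidence interval from 81.2% to 103%. The log2 fold change was -0.13 (SE 0.07), with an adjusted p-value of 0.502 by edgeR over 19149 genes and a p of 0.2 by the exact two-sided permutation test, whose smallest possible p here is 0.1.

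*HOXA10*, which shares with *HOXA9* a role in keeping progenitors from maturing, was at 65.2, 61.5 and 70.4 CPM in shNC against 55.6, 56.6 and 67.3 CPM in shATGL. shATGL 1 and 2 lay below all shNC libraries, and shATGL 3 lay within them. The log2 fold change was -0.14 (SE 0.10, adjusted p-value 0.579 by edgeR, exact permutation p 0.3), and the interval of the level ran from 78.1% to 106% of shNC. *HOXA11*, a 5′ gene best known from limb, kidney and uterus, was at 20.2, 24.2 and 22.1 CPM in shNC against 20.3, 22.4 and 23.3 CPM in shATGL. The groups interleaved, with means of 22.2 ± 2.03 and 22.0 ± 1.52 CPM (SD, n = 3). Its log2 fold change was -0.01 (SE 0.10, adjusted p-value 0.973 by edgeR), and the interval ran from 84.2% to 117% of shNC.

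*HOXA5* and *HOXA7* were the strongest of the middle genes. *HOXA5*, which acts in lung development and in blood progenitors, was at 3.08, 2.45 and 3.03 CPM in shNC against 2.20, 2.55 and 2.13 CPM in shATGL, and overlapped only through shNC 2 and shATGL 2. Its log2 fold change was -0.32 (SE 0.17, adjusted p-value 0.498 by edgeR, the smallest of the 10 genes), with an interval from 60.8% to 106% of shNC. *HOXA7*, another gene raised by KMT2A fusions, was at 3.49, 3.01 and 2.41 CPM in shNC against 2.08, 3.83 and 3.25 CPM in shATGL. The spread within each group exceeded the difference of its means, and the log2 fold change was 0.04 (SE 0.26, adjusted p-value 0.964 by edgeR).

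*HOXA3*, *HOXA4* and *HOXA6* rested on few reads, which limits what a difference could show. *HOXA4*, a patterning gene of the neck and thorax, had 93, 46 and 53 counts in shNC and 64, 35 and 43 in shATGL, a log2 fold change of -0.46 with an interval from -1.29 to 0.36. *HOXA6* had 38, 7 and 16 counts in shNC and 29, 33 and 28 in shATGL, a log2 fold change of 0.55 with an interval from -0.74 to 1.84. In *HOXA6* the shNC libraries spread on both sides of the tight shATGL group. *HOXA3*, a gene of pharyngeal patterning, had 17, 4 and 14 counts in shNC and 22, 15 and 10 in shATGL, a log2 fold change of 0.39 with an interval from -1.03 to 1.81. When each library was left out in turn, the log2 fold change of *HOXA4* moved between -0.68 (without shATGL 1) and -0.17 (without shNC 1), that of *HOXA3* between 0.05 (without shNC 2) and 0.71 (without shNC 1), and that of *HOXA6* between 0.21 (without shNC 2) and 1.30 (without shNC 1). By edgeR the adjusted p-values were 0.610 for *HOXA4*, 0.699 for *HOXA6* and 0.819 for *HOXA3*. The variation between replicates estimated for *HOXA3* and *HOXA6* was 43.6% and 44.8% of the level, against 8.79% for *HOXA9* and 7.86% for *PBX3*.

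*MEIS1* and *PBX3*, the partners of *HOXA9*, stood far apart in the order, with *PBX3* next to *HOXA9* and *MEIS1* among the weakly expressed genes. *MEIS1* (chr2:66433452-66573869 in GRCh38, plus strand) was at 3.31, 4.97 and 3.78 CPM in shNC against 4.05, 4.24 and 2.96 CPM in shATGL. Every shATGL library but shATGL 3 lay inside the shNC range, and the log2 fold change was -0.10 (SE 0.21, adjusted p-value 0.876 by edgeR), with an interval from 66.4% to 132% of shNC. *PBX3* (chr9:125747345-125967377 in GRCh38, plus strand) was at 102, 97.1 and 99.5 CPM in shNC against 95.3, 94.7 and 102 CPM in shATGL. Its log2 fold change was -0.03 (SE 0.06, adjusted p-value 0.846 by edgeR), and its interval, the narrowest of the 10, ran from 88.7% to 108% of shNC.

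Per kb, *PBX3* was 47.2 to 83.1 times and *HOXA9* 47.7 to 81.0 times as abundant as *MEIS1*. The annotated exons of *MEIS1* cover 10934 bases against 5111 in its longest coding transcript, and with the latter *MEIS1* averaged 0.760 CPM per kb and stood above *HOXA4*. *MEIS2*, a close relative named after its values were seen, was 3.85 to 6.31 times as abundant per kb as *MEIS1*. Of the 9 other TALE genes examined, *PBX2* at 19.3 CPM per kb and *TGIF2*, a corepressor of TGF-beta signalling, at 12.3 were the highest, so that *PBX2* came close to *PBX3*. *PBX2* was at 80.1, 81.2 and 82.4 CPM in shNC against 87.1, 87.9 and 85.6 CPM in shATGL, with no overlap, but the log2 fold change was 0.10 (SE 0.06) and the adjusted p-value 0.515 by edgeR. The ratio of *PBX3* to *PBX2* was 1.15 to 1.22 in shNC and 1.03 to 1.14 in shATGL, so the groups nearly met. It was the only ratio examined whose groups did not overlap. Among all genes taken singly, the groups did not overlap for 17.3%.

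None of the 10 genes passed the test between the groups. Of all 19149 genes tested, 1 (0.00522%) passed both the adjusted p-value of 0.05 and a 2-fold difference by edgeR, and it was not among the 10. At an unadjusted p under 0.05, 0 of the 10 passed by edgeR against 11.7% of all genes (5.94% lower and 5.77% higher). Limma voom gave 2, *HOXA9* and *HOXA10*, against 30.6% of the same 19149 genes. DESeq2 gave 0 against 7.02% of 31959 genes, a wider set, so its share is not directly comparable. For 0 of the 10 the groups did not overlap, against 17.3% of all genes (9.38% lower and 7.93% higher). The log2 fold change was below 0 for 7 of the 10, against 48.1% of all genes, and the median was -0.07 for the 10 and 0.01 for all genes. With all libraries, the lower limits of the intervals were 81.2% of shNC for *HOXA9*, 78.1% for *HOXA10* and 88.7% for *PBX3*. For *HOXA6* the interval reached from 60.1% to 359%. The lower limits moved with the fit, so they are not floors. As log2 fold changes, that of *HOXA9* was -0.300 with all libraries and -0.356 without shATGL 2. That of *HOXA10* was -0.357 with all libraries and -0.432 without shNC 1. That of *PBX3* was -0.173 in the main fit and -0.255 with the length and GC correction.

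**Figure D4:**
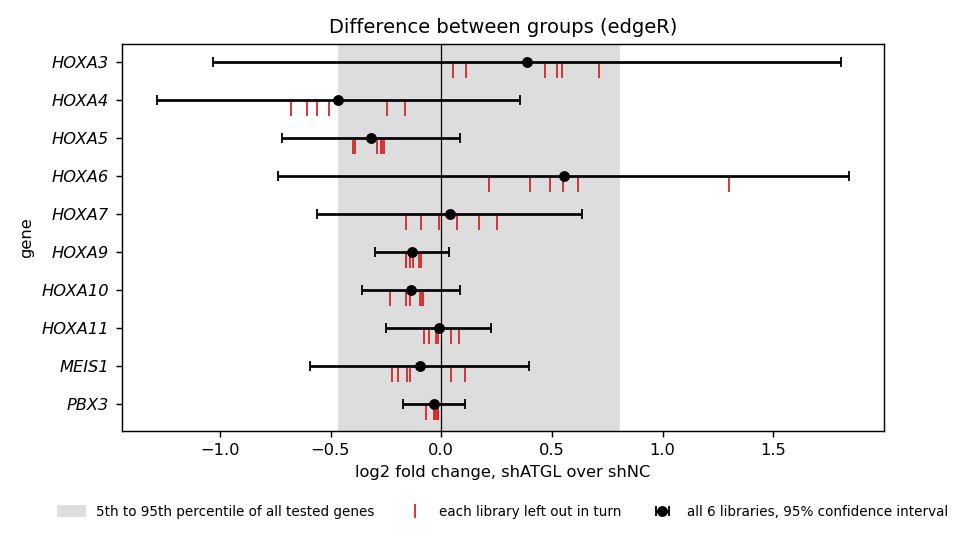
Log2 fold change of shATGL over shNC for the 10 genes by edgeR, with 95% confidence intervals (black), the values with each library left out in turn (red ticks) and the 5th to 95th percentile of all tested genes (grey band). Every interval from all 6 libraries includes 0, and the intervals narrow from *HOXA3* and *HOXA6* to *HOXA9* and *PBX3*.

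shATGL 3 stood apart from the other libraries labelled shATGL. Without it, 14.0% of 19954 genes passed an adjusted p-value under 0.05 by edgeR and 28.8% an unadjusted p under 0.05. *HOXA10* then had a log2 fold change of -0.23 (unadjusted p 0.0101, adjusted p-value 0.0630 by edgeR, 0.0630 to 0.902 over the alternatives) and *HOXA9* of -0.16 (unadjusted p 0.0491, adjusted p-value 0.172 by edgeR, 0.146 to 0.855 over the alternatives), 2 of the 10 genes past an unadjusted p under 0.05 and 0 past the adjusted threshold. Without shNC 1, *HOXA6* had a log2 fold change of 1.30 (unadjusted p 0.0454, adjusted p-value 0.639 by edgeR, 0.529 to 0.920 over the alternatives).

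No other gene of the HOXA cluster passed either. Of 11, 7 had enough reads to be tested, with a median log2 fold change of 0.04. By edgeR, 0 passed an unadjusted p under 0.05, against 11.7% of all genes, and 0 passed an adjusted p-value under 0.05. *HOXA13* was at 17.5, 17.7 and 17.7 CPM in shNC against 15.9, 17.5 and 18.0 CPM in shATGL. The lowest log2 fold change was that of *HOTAIRM1*, at -0.33 (SE 0.21, adjusted p-value 0.546 by edgeR). Of 28 genes of the HOXB, HOXC and HOXD clusters, 14 were tested. *HOXB6* alone passed an unadjusted p under 0.05 by edgeR, against 11.7% of all genes. Among the 14, the groups did not overlap for 2 with higher values in shATGL and 1 with lower values. The shares over all genes were 7.93% and 9.38%. *HOXB6* was at 18.4, 18.2 and 20.9 CPM in shNC against 15.6, 15.6 and 17.1 CPM in shATGL, with no overlap. Its log2 fold change was -0.25 (SE 0.10, unadjusted p 0.0349, adjusted p-value 0.405 by edgeR). Of the 9 TALE genes, 8 were tested and 0 passed an unadjusted p under 0.05 by edgeR. Without shATGL 3, 1 of 8 passed the adjusted threshold, against 14.0% of all genes. This was *TGIF2*, with a log2 fold change of -0.24 (adjusted p-value 0.0310 by edgeR, 0.0310 to 0.864 over the alternatives).

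Chromatin regulators that act on the cluster all had enough reads to be tested, though not all reached 1 CPM. Of 28, 3 passed an unadjusted p under 0.05 by edgeR, all with higher values in shATGL, against 5.77% of all genes in that direction. None passed the adjusted threshold by edgeR in all 6 libraries, and the median log2 fold change was 0.05. *WDR5*, a core subunit of KMT2A complexes, at 45.4 CPM per kb and *RING1*, a Polycomb ubiquitin ligase, at 30.05 were the most abundant. *MLLT3*, a subunit of the super elongation complex, was at 5.95, 5.63 and 6.19 CPM in shNC against 7.64, 9.39 and 7.06 CPM in shATGL, with no overlap. Its log2 fold change was 0.44 (SE 0.14, unadjusted p 0.0152, adjusted p-value 0.392 by edgeR), and without shATGL 3 it was 0.52 (adjusted p-value 0.0467 by edgeR, 0.0443 to 0.837 over the alternatives). *KDM6B*, an H3K27 demethylase, had a log2 fold change of 0.24 (SE 0.10, unadjusted p 0.0403, adjusted p-value 0.413 by edgeR). *ASH1L*, an H3K36 methyltransferase, was at 50.4, 52.7 and 42.7 CPM in shNC against 84.2, 90.3 and 50.6 CPM in shATGL. Only shATGL 1 and 2 were above the shNC libraries, and the log2 fold change was 0.63 (adjusted p-value 0.392 by edgeR) with all libraries and 0.84 (adjusted p-value 0.00185 by edgeR, 0.00185 to 0.837 over the alternatives) without shATGL 3. Without that library 5 of the 28 regulators passed the adjusted threshold with higher values and 1 with lower values, against 14.0% of all genes in either direction.

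Genes listed here as targets of *HOXA9* and *MEIS1* lay on both sides of 0. The list does not state whether each gene is raised or lowered by them, so these directions do not measure *HOXA9* activity. Of 28, 23 were tested, 10 with a log2 fold change above 0 and 13 below. At an unadjusted p under 0.05, 1 was higher and 1 lower, against 5.77% and 5.94% of all genes, 0 passed the adjusted threshold by edgeR, and the median log2 fold change was -0.05. *LGALS1*, which encodes galectin-1, and *MYB*, a driver of progenitor growth, were the most abundant at 255 and 89.8 CPM per kb. *MYB* was at 522, 508 and 473 CPM in shNC against 490, 504 and 462 CPM in shATGL, a log2 fold change of -0.04 (SE 0.06). *LGALS1* was at 293, 289 and 340 CPM in shNC against 239, 241 and 280 CPM in shATGL, with no overlap and a log2 fold change of -0.28 (SE 0.09, unadjusted p 0.0167, adjusted p-value 0.392 by edgeR). Without shATGL 3 it passed the adjusted threshold, with a log2 fold change of -0.36 (adjusted p-value 0.0218 by edgeR, 0.0218 to 0.837 over the alternatives). *JMJD1C*, a histone demethylase family member, was at 70.1, 84.4 and 73.9 CPM in shNC against 182, 192 and 74.6 CPM in shATGL. As with *ASH1L*, shATGL 3 lay with the shNC libraries, and the log2 fold change was 0.98 (adjusted p-value 0.392 by edgeR) with it and 1.30 (adjusted p-value 0.000193 by edgeR, 0.000193 to 0.837 over the alternatives) without it. Without shATGL 3, 2 of the 23 listed targets passed the adjusted threshold with higher and 3 with lower values, against 14.0% of all genes in either direction.

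Over the 6 libraries, the genes whose log2(CPM + 1) followed *HOXA9* most closely among 9297 genes were *TMEM59*, *C11orf98* and *EIF3I*, each with a Pearson's r of 0.991 or 0.990. For *MEIS1* they were *RMDN1* (0.991), *RIOK1* (0.973) and *ANAPC13* (0.968), and for *PBX3* *RAB11FIP5* (0.999), *WDR45B* (0.991) and *NXPE3* (0.990). With 6 libraries in 2 groups and so many genes compared, these are descriptions only, and no gene was named for more than 1 of the 3.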

How the data were processed

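Per the labels and the study's methods, RNA was isolated from shNC and shATGL MV4-11 cells, cDNA was amplified and sequenced in pairs on an Illumina instrument, and low-quality reads were removed with FASTP. The authors deposited raw counts per gene, without normalization. The aligner, counter and strand setting are not given in the sources used here. The submitters' processing notes list the build mm10, whereas the identifiers are human Ensembl genes. Symbols were matched for 61757 of 61806 identifiers and GENCODE 29 (GRCh38) positions for 58254, so coordinates and lengths are from that annotation.

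Of these, filterByExpr retained 19149 (at least 10 counts, 15 in total). Groups, taken from the sample titles, were compared in R 4.3.3 with edgeR 4.0.16 (TMM, quasi-likelihood test, no block), with Benjamini-Hochberg adjustment over all of them. Single genes were also tested by exact permutation of log2(CPM + 1) over 20 relabellings. Alternatives used limma 3.58.1 and DESeq2 1.42.0, other normalizations, filters and lengths, a replicate block, a length and GC correction and leaving out each library. Tests were run on simulated counts, where edgeR recovered 128 of 200 changed genes and made 7 false calls. Of the recovered genes, 127 were among the 139 with a mean of at least 1 CPM. In the simulation edgeR thus rarely detected changes of genes below that level, where *HOXA3*, *HOXA4* and *HOXA6* lie. These shares hold for changes of the simulated size, which is not given here. They do not give the power for the differences reported for the 10 genes. Intervals cover the spread between libraries, and the limit for a count of 0 covers counting error only.

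The 10 genes and the lists were chosen with earlier results of these data known. Besides the 10 genes and *PNPLA2*, a listed gene was named if its unadjusted p was under 0.05, if it lies in the HOXA cluster, or if it was among the 2 highest per kb of its list; genes followed by likeness had a mean of at least 10 CPM. *MEIS2* and the other HOX genes given only as levels were named after their values were seen. Some genes and sequences are not reported here.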

Additional observations from a re-analysis of the deposited data

How the results depend on the processing

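None of the 10 genes reached an adjusted p-value under 0.05 in any of 14 alternatives, of which 13 could be fitted for *HOXA3* and *HOXA6* and DESeq2 gave *HOXA3* no adjusted p-value, and the smallest was 0.0630 for *HOXA10* without shATGL 3. Of 138 pairs of gene and alternative, 129 kept direction and side of the threshold and 9 changed direction. The log2 fold change of *HOXA7* was -0.15 under limma voom and ranged from -0.16 to 0.25 when each library was left out, that of *MEIS1* was 0.072 under limma voom and ranged from -0.22 to 0.11, that of *HOXA11* ranged from -0.0763 to 0.0796, and that of *PNPLA2* from -0.024 to 0.0327. *HOXA3*, *HOXA4*, *HOXA5*, *HOXA6*, *HOXA9*, *HOXA10* and *PBX3* kept their direction in every alternative that was fitted. At an unadjusted p under 0.05, limma voom gave 2 of the 10 genes (*HOXA9* and *HOXA10*) against 30.6% of all genes, and leaving out each library gave 0 to 2.

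Over all genes, the count passing both thresholds was 1, and it was 3 with upper-quartile factors, 23 by DESeq2 (17 higher), 266 by limma voom (241 higher) and 0 with the replicate number as a block. Leaving out each library gave 0 to 319, with 319 (299 higher) without shATGL 3, 2 without shNC 1, and 0 without shNC 3 or shATGL 1. The cause of these differences was not tested. In their deviations over 13935 genes, same-numbered libraries correlated at 0.0599, 0.233 and 0.343, and differently numbered ones at -0.291 to 0.192. The labels do not say whether the numbers pair the libraries, and the block was used as an alternative only. With the block, *HOXA10* had an unadjusted p of 0.0567 and *HOXA9* of 0.0782 (adjusted p-values 0.304 and 0.343 by edgeR).

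With the longest coding transcript as the length, *HOXA9* averaged 32.7, *HOXA10* 24.7, *PBX3* 33.9 and *MEIS1* 0.760 CPM per kb, so that *PBX3* stood above *HOXA9* and *MEIS1* above *HOXA4*. TPM kept the order. Log2 fold changes rose with exon length over all genes (Spearman's rho 0.19, and 0.0635 after the correction), and that of *MEIS1* was -0.28 with the correction. Depth limits *HOXA3*, *HOXA4* and *HOXA6* most.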
